A study of Mus musculus with 6 samples.

Results

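The genes described here encode 32 enzymes that make the building blocks of RNA and DNA: the purine and pyrimidine synthesis enzymes, the enzymes that turn ribonucleotides into deoxynucleotides, and the folate enzymes that supply single-carbon units to both. They were taken by symbol, and 31 of the 32 had a probe set annotated to that gene alone, out of 18193 such genes on the array. The expression of the gene without one, Impdh2, was not analysed here. All 31 passed the filter on low signal, as did 14680 genes in all, and each gene is represented by its brightest probe set over the 6 arrays. Expression was compared between sorted mouse bone marrow cells of 2 genotypes, MLL-AF9/Mn1wt (n = 3 arrays) and MLL-AF9/Mn1null (n = 3 arrays). Cells of both genotypes had received an EGFP control vector and carried MLL-AF9, the oncogene that a chromosome translocation creates in some acute leukaemias, and they grew in medium with fetal calf serum, interleukin 3, interleukin 6 and stem cell factor. The groups differ by a CRISPR-Cas9 deletion of Mn1, which encodes a transcriptional cofactor. The age and strain of the animals, the vector of MLL-AF9, the guide and whether the Mn1null cells are 1 clone are not stated in the labels. Nor are the replicates said to be separate cultures, so the p-values measure only how far these samples spread, and that spread may be technical.

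As background, purines are built step by step on a ribose phosphate until inosine monophosphate is reached, which is then turned into AMP or GMP, whereas pyrimidines are made as a free ring and joined to the ribose afterwards. Ribonucleotide reductase removes the hydroxyl group that separates ribonucleotides from deoxynucleotides, thymidylate synthase makes the base that DNA alone uses, and salvage enzymes recover bases and nucleosides from outside or from breakdown. Dividing leukaemia cells draw heavily on these routes, and several of the enzymes are targets of antileukaemic drugs, among them antifolates, mercaptopurine and cytarabine, which needs phosphorylation by deoxycytidine kinase.

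Most of the enzyme genes were lower in cells without Mn1. Of the 31 tested, 21 fell, 2 rose and 8 stayed above the threshold of limma's test, an adjusted p of 0.05. Among all genes tested 48.8% passed it, 25.6% as lower and 23.2% as higher. The median difference, Mn1null minus Mn1wt, was -0.35 on the log2 scale over the 31 genes and -0.0053 over all genes tested. The falls were moderate: 9 genes fell by more than 1.5-fold and 2 by more than 2-fold. Of all 14680 genes tested, 892 differed by at least 2-fold in either direction. The 3 Mn1null values lay below the 3 Mn1wt values for 24 of the 31 genes and above them for 2, against 30.1% and 27.6% of all genes (57.7% either way). The median SD of these genes between arrays of 1 group was 0.0366 in Mn1wt and 0.0451 in Mn1null. In bulk samples such as these, fewer cells of a type and less RNA per cell cannot be told apart.

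**Figure D1:**
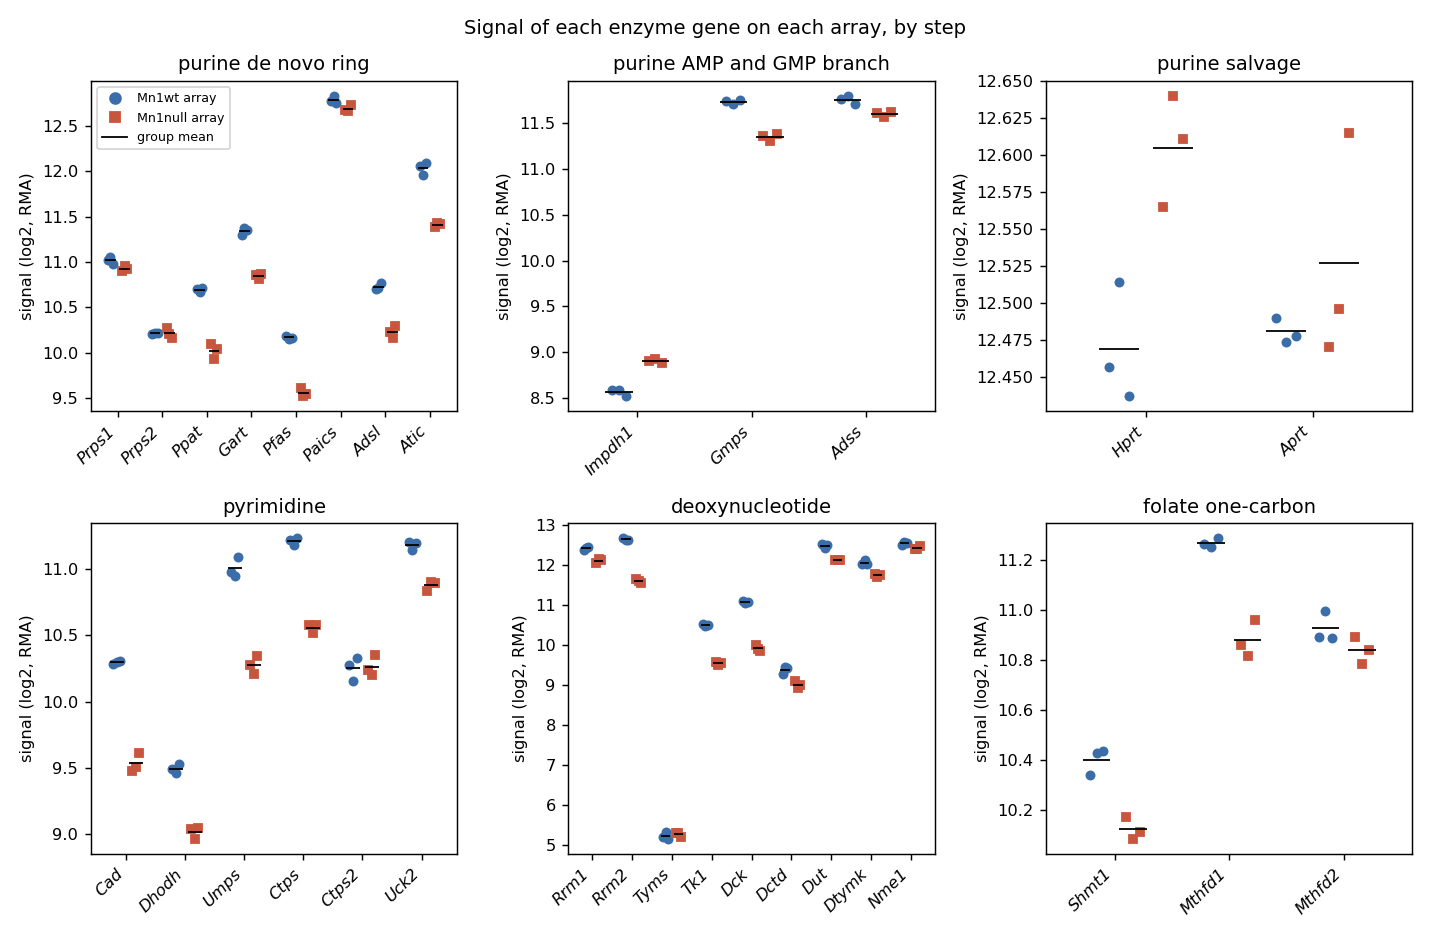
Log2 signal of the 31 enzyme genes on each array, in panels by metabolic step. Circles are the 3 Mn1wt arrays, squares the 3 Mn1null arrays and lines the group means; each panel has its own vertical scale, and the squares lie below the circles for 24 genes.

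Several values describe the arrays as a whole. Array medians lay between 5.17 and 5.23, and arrays correlated at 0.997 to 0.998 within groups and at 0.968 to 0.969 between them. Mn1, read by 1 probe set whose place relative to the deletion the sources do not state, was at 4.49, 4.12 and 4.44 in Mn1wt and at 4.21, 4.12 and 4.07 in Mn1null, close to the filter level of 4.07, so it does not check the labels. Myeloid precursor markers were high in both groups, their summed level lying between 16.02 and 16.04 (log2) in Mn1wt and between 15.93 and 15.94 in Mn1null. Single genes of this list moved in both directions, with 2 of 6 higher and 3 lower. Cd34 rose by 0.79 and Mpo by 0.28, while Prtn3 fell by 0.46, Ctsg by 0.27 and Kit by 0.17. Markers of other blood cells moved with genotype: the summed monocyte markers (5 of 6 measured) went from 12.82 to 12.91 in Mn1wt down to 8.98 to 8.99 in Mn1null, and the summed mast cell and basophil markers (5 of 5) from 11.50 to 11.57 up to 13.62 to 13.66. Of the 5 monocyte genes 4 fell, while Adgre1 rose by 1.11. The summed neutrophil markers (5 of 5 genes higher) went from 11.10 to 11.18 up to 12.71 to 12.77, the eosinophil markers (2 of 2 higher) from 7.12 to 7.34 up to 10.35 to 10.40, and the megakaryocyte markers (2 of 4 higher, 1 lower) from 9.37 to 9.50 up to 11.61 to 11.80. Erythroid markers (4 of 6 measured, 2 higher) went from 8.33 to 8.38 up to 8.97 to 9.08. Stroma and endothelium markers (4 of 4 measured, 1 higher) went from 9.10 to 9.29 up to 10.84 to 10.91. Pecam1 rose by 1.78, while Col1a1 (-0.060) and Cdh5 (-0.18) did not pass and Col3a1 lay under the filter. B cell markers (3 of 4 measured, 1 lower) went from 7.39 to 7.41 down to 6.95 to 7.13. Cd79b fell by 0.91, while Cd79a (0.18) and Pax5 (0.098) did not pass. The T and NK cell markers (5 of 5 measured) summed to 7.52 to 7.66 and 7.57 to 7.69, and 0 of the 4 over the filter passed limma's test (0 also at an unadjusted p under 0.05). The bacterial 5′ labelling controls were lower in Mn1null by 0.85, with 8 of 8 probe sets not overlapping, and the 3′ labelling controls differed by -0.30. The part of these differences in the results on the enzyme genes was not tested.

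The promoter sequences of the strongest falls are shown first, followed by those of a pair of neighbouring purine genes that differ in their response. Sequences are from RefSeq (GRCm38.p6), whose table held 30 of the 32 genes, and run 5′ to 3′ along the gene's strand over the 250 bases before the annotated start. Capitals mark a motif from a list of 4: CACGTG (the E-box bound by MYC and related factors), TTTCCCGC and TTTGGCGC (E2F type) and CCAAT (NF-Y type), searched on both strands, with 0 overlapping matches of different motifs. The promoters of Rrm2, Dck and Tk1, the 3 genes with the largest falls, are
Rrm2 (chr12:24708004-24708253, plus strand): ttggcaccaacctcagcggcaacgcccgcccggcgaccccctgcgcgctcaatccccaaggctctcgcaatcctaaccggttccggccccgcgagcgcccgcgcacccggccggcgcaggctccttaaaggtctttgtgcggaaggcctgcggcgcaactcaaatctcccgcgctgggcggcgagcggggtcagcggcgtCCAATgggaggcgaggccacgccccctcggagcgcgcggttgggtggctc
Dck (chr5:88764763-88765012, plus strand): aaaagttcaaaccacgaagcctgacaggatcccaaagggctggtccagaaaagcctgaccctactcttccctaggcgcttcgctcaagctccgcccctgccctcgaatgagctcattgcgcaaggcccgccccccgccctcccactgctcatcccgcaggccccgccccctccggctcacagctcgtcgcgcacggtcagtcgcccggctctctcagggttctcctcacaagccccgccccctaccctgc
Tk1 (chr11:117826015-117826264, minus strand): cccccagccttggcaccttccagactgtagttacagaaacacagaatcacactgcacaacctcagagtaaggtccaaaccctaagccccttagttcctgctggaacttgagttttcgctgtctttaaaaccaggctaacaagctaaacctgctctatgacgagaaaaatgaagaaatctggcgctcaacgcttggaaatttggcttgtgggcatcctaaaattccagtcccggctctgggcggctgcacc
Of the 3, Rrm2 held a match, a CCAAT that begins 50 bases before the start, and the letters of the 4 motifs were not found in the other two windows. The windows also differ in base composition, with 72.4% G and C in Rrm2, 66.0% in Dck and 49.6% in Tk1.

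Ppat and Paics lie head to head on chromosome 5, with annotated genes that overlap by 277 bases, so that each start lies inside the other gene. They were singled out after their values were seen, because Ppat fell while Paics did not pass the test. Stretches of 30 bases around each match before their starts show that the motifs found differ between them. Those of Paics, chr5:76951087-76951116 and chr5:76951267-76951296 on the plus strand, are
Paics, 203 bases before the start: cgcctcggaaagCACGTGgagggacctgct
Paics, 23 bases before the start: tcccgctctccgCCAATcagctagggcaaa
Those of Ppat, chr5:76951771-76951800 and chr5:76951718-76951747 on the minus strand, are both E2F type matches read on the opposite strand:
Ppat, 211 bases before the start: gagcagaccgcGCGGGAAAaaagggcagtg
Ppat, 158 bases before the start: aggatcagaggGCGGGAAAgggaggtgcaa
Over windows of 300 bases, from 250 before the start to 50 after it, 6 of the 30 enzyme genes held CACGTG (20%, against 8.09% of 27025 genes with a window), 14 held CCAAT (46.7% against 41.1%), 2 held TTTCCCGC (6.67% against 1.24%) and 0 held TTTGGCGC (0.585% of all). The E-box stood in 2 of the 19 genes that fell and had a window, Atic and Dtymk. It stood in 4 of the other 11 with a window, Nme1, Paics, Tyms and Impdh2, the last of which was not analysed for expression. The direction of Dtymk depends on the probe set, and Tyms gave low signals. CCAAT stood in 9 of the 19 and 5 of the 11, TTTCCCGC in 1 of each and TTTGGCGC in 0 of each. A match is a description of the letters only.

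The genes of the enzymes that build the purine ring fell for the most part. Of 8 genes tested, 5 fell, 0 rose (0 also at an unadjusted p under 0.05) and 3 stayed above the threshold, and the median of the 8 was -0.50. Over all genes tested 25.6% fell and 23.2% rose, the shares to set beside the count of every step. Ppat, the amidotransferase of the committed first step, read 10.70, 10.66 and 10.71 in Mn1wt and 10.09, 9.92 and 10.04 in Mn1null. The groups lay well apart, a fall of 0.67 ± 0.056 (SE) or 1.59-fold (limma adjusted p = 8.02e-05). The mean of its probe sets, 1 of them under the filter level, fell by 0.43. Pfas, which adds a nitrogen from glutamine to the growing chain, read 10.19, 10.16 and 10.16 against 9.61, 9.52 and 9.55, a difference of -0.61 ± 0.046. Atic, the bifunctional enzyme that closes the second ring, read 12.06, 11.97 and 12.09 against 11.39, 11.43 and 11.41, a difference of -0.63 ± 0.051, and its other probe set gave -1.13. Gart, a trifunctional enzyme that uses folate to add a single carbon, differed by -0.50 ± 0.046, and Adsl, the adenylosuccinate lyase, by -0.50 ± 0.052. The 4 probe sets of Gart, between -0.72 and -0.50, fell together.

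The exceptions in this route were the supply of activated ribose and 1 middle step. Paics, the bifunctional carboxylase and ligase, read 12.78, 12.83 and 12.76 in Mn1wt and 12.68, 12.67 and 12.74 in Mn1null. Its groups did not overlap, but they lay only 0.10 apart (log2 difference -0.10, 95% interval -0.21 to 0.016), which did not pass (adjusted p = 0.138). With an intensity trend in the variance model it did, at the same difference (adjusted p = 0.0129). The values of Ppat and Paics, from the same locus, were thus -0.67 and -0.10, and the second probe set of Ppat over the filter gave -0.61 while the others of Paics gave -0.0096 and -0.16. Prps1, a phosphoribosyl pyrophosphate synthetase, differed by -0.089 (95% interval -0.20 to 0.019, adjusted p = 0.154). Its isozyme Prps2 read 10.20, 10.22 and 10.21 against 10.27, 10.21 and 10.16, a difference of 0.0014 (95% interval -0.11 to 0.11, adjusted p = 0.983), with its groups overlapping. Another Prps2 probe set gave -0.22 (adjusted p = 0.0109 over all probe sets) and the third gave 0.12.

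After inosine monophosphate, the genes of the branches towards AMP and GMP moved in both directions. Impdh1, an isozyme of the dehydrogenase that commits purines to GMP, read 8.59, 8.59 and 8.52 in Mn1wt and 8.90, 8.92 and 8.88 in Mn1null. All 3 Mn1null values lay above, a rise of 0.34 ± 0.045 (SE) or 1.26-fold (limma adjusted p = 0.000736), the largest rise among the 31 genes. Gmps, which completes GMP, went the other way, from 11.74, 11.71 and 11.76 to 11.36, 11.31 and 11.39, a fall of 0.38 ± 0.045 (adjusted p = 0.000404). Its dimmer probe sets differed by -0.17 and -0.90. Adss, the synthase on the AMP side, differed by -0.16 ± 0.046 (adjusted p = 0.0255), a call lost under quantile normalization (adjusted p = 0.0578) and on leaving out Mn1wt replicate 1 or 2 or Mn1null replicate 1 or 2 (adjusted p between 0.0653 and 0.0807).

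Purine salvage did not fall. Hprt, which recovers hypoxanthine and guanine and activates mercaptopurine, read 12.46, 12.51 and 12.44 in Mn1wt and 12.57, 12.64 and 12.61 in Mn1null. The Mn1null values lay above, but the rise of 0.14 ± 0.047 (limma adjusted p = 0.0493) was lost when any 1 of the 6 arrays was left out (adjusted p between 0.0563 and 0.131), without a filter (0.0747), with median centring (0.0908) and with array weights (0.0585). Aprt, which recovers adenine, read 12.49, 12.47 and 12.48 against 12.47, 12.50 and 12.62, a difference of 0.046 (95% interval -0.079 to 0.17, adjusted p = 0.523). The groups overlapped, since 1 Mn1null array stood above the rest.

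**Figure D2:**
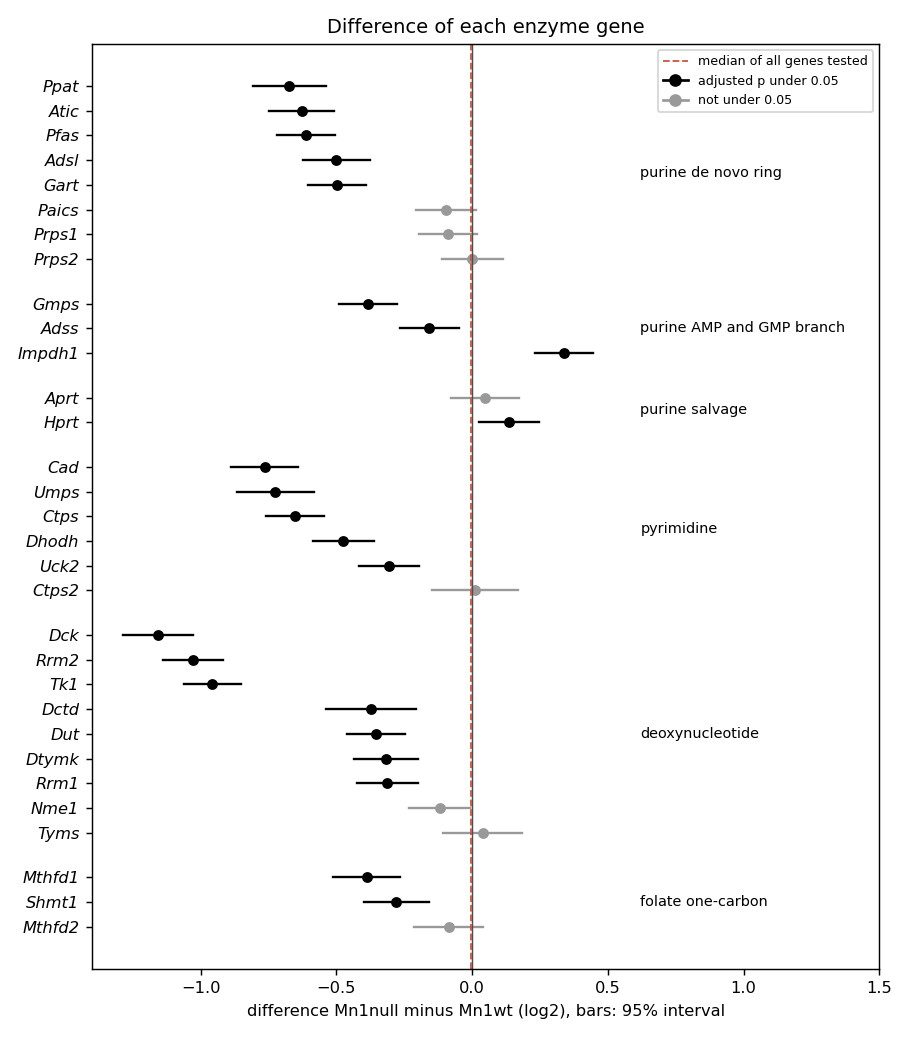
Difference Mn1null minus Mn1wt (log2) of each enzyme gene with its 95% interval from limma, ordered within each metabolic step. Black points passed an adjusted p of 0.05 and grey points did not; the dashed line is the median of all 14680 genes, at -0.0053, and 21 black points lie left of 0 and 2 right of it.

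Genes of pyrimidine synthesis and salvage fell for the most part, with 5 of 6 lower, 0 higher (0 also at an unadjusted p under 0.05) and a median of -0.56. Cad, whose product carries out the opening reactions of the pathway, read 10.28, 10.30 and 10.31 in Mn1wt and 9.48, 9.51 and 9.61 in Mn1null. This was a fall of 0.76 ± 0.051 (SE), 1.70-fold (limma adjusted p = 2.98e-05), and its dimmer probe sets gave -0.32 and -0.31. Dhodh, the mitochondrial dehydrogenase of the middle step, fell by 0.47 ± 0.047, from 9.49, 9.46 and 9.53 to 9.04, 8.97 and 9.05, and by 0.28 on its second probe set. Umps, which makes UMP, read 10.98, 10.95 and 11.09 against 10.28, 10.21 and 10.35, a difference of -0.73 ± 0.060, and its other probe sets over the filter gave -0.69 and -0.48. Each of these genes had its 3 Mn1null values below the 3 Mn1wt values.

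The last step, from UTP to CTP, has isozymes that parted. Ctps read 11.22, 11.18 and 11.23 in Mn1wt and 10.57, 10.52 and 10.58 in Mn1null, a difference of -0.65 ± 0.045 (limma adjusted p = 3.27e-05). Ctps2 read 10.28, 10.16 and 10.33 against 10.24, 10.20 and 10.36, a difference of 0.011 (95% interval -0.15 to 0.17, adjusted p = 0.913), with overlapping groups. Uck2, the uridine and cytidine salvage kinase, fell by 0.30 ± 0.047 (adjusted p = 0.00142) on its brightest probe set, and its 5 others ranged from -0.50 to 0.024.

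The genes of the deoxynucleotide enzymes held the largest falls. Of 9 genes, 7 fell, 0 rose (0 also at an unadjusted p under 0.05) and 2 stayed above the threshold, and the median of the 9 was -0.35. Dck, the deoxycytidine kinase, read 11.10, 11.03 and 11.06 in Mn1wt and 9.99, 9.90 and 9.84 in Mn1null, a fall of 1.16 ± 0.055 (SE) or 2.23-fold (limma adjusted p = 5.90e-06). Its 3 probe sets fell by 0.77 to 1.16, and 1.70% of all genes had a difference as low or lower. Rrm2, the small subunit of ribonucleotide reductase, read 12.65, 12.61 and 12.63 against 11.65, 11.60 and 11.55, a fall of 1.03 ± 0.047 or 2.04-fold, with -1.12 and -1.03 on its other probe sets. Rrm1, its large subunit, fell less on the array, by 0.31 ± 0.048 (adjusted p = 0.00148), and by 0.13 on a dimmer probe set that did not pass (adjusted p = 0.165). Tk1, the cytosolic thymidine kinase, read 10.52, 10.48 and 10.49 against 9.57, 9.51 and 9.54, a fall of 0.96 ± 0.044 or 1.94-fold. In each of Dck, Rrm2 and Tk1 the gap between the groups was several times the spread within them.

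Genes of enzymes around thymidylate fell by smaller amounts or gave no clear reading. Dctd, the deaminase that feeds dUMP, differed by -0.37 ± 0.069 and Dut, which removes dUTP, by -0.35 ± 0.044, from 12.50, 12.42 and 12.48 to 12.11, 12.12 and 12.12, with -0.68 on a dimmer probe set. Dtymk, the thymidylate kinase, read 12.02, 12.12 and 12.02 against 11.77, 11.69 and 11.75 on its brightest probe set, a difference of -0.32 ± 0.050 (limma adjusted p = 0.0016). Its other probe sets, nearly as bright, rose by 0.17 (adjusted p = 0.0288) and 0.19 (0.0232), so the direction of Dtymk depends on the probe set. Tyms, the thymidylate synthase, read 5.22, 5.33 and 5.17 against 5.32, 5.31 and 5.20, a difference of 0.038 (95% interval -0.11 to 0.18, adjusted p = 0.65). These are low signals, its 4 probe sets have group means between 2.96 and 5.28, the second brightest gave -0.37 (adjusted p = 0.00284), and a further probe set listed for several genes was not used. Nme1, a nucleoside diphosphate kinase, differed by -0.12 (95% interval -0.23 to -0.0071, adjusted p = 0.0762), and it passed with a filter at the 50th percentile (adjusted p = 0.0480) and with an intensity trend (0.00357).

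The genes of the cytosolic folate enzymes fell. Mthfd1, the trifunctional enzyme that makes formyl folate for purine synthesis, read 11.27, 11.25 and 11.29 in Mn1wt and 10.86, 10.82 and 10.96 in Mn1null, a difference of -0.39 ± 0.053 (SE, limma adjusted p = 0.000782), and its 3 probe sets ranged from -0.52 to -0.28. Shmt1, the cytosolic serine hydroxymethyltransferase, differed by -0.28 ± 0.050 (adjusted p = 0.00322), and its 4 probe sets gave -0.35 to -0.24. Mthfd2, a mitochondrial enzyme of the folate cycle, read 10.89, 10.998 and 10.89 against 10.89, 10.79 and 10.84, a difference of -0.087 (95% interval -0.21 to 0.041, adjusted p = 0.234) with overlapping groups. Its second probe set gave -0.25 (adjusted p = 0.00884), and the mean of both gave -0.17 and passed (adjusted p = 0.0113).

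**Figure D3:**
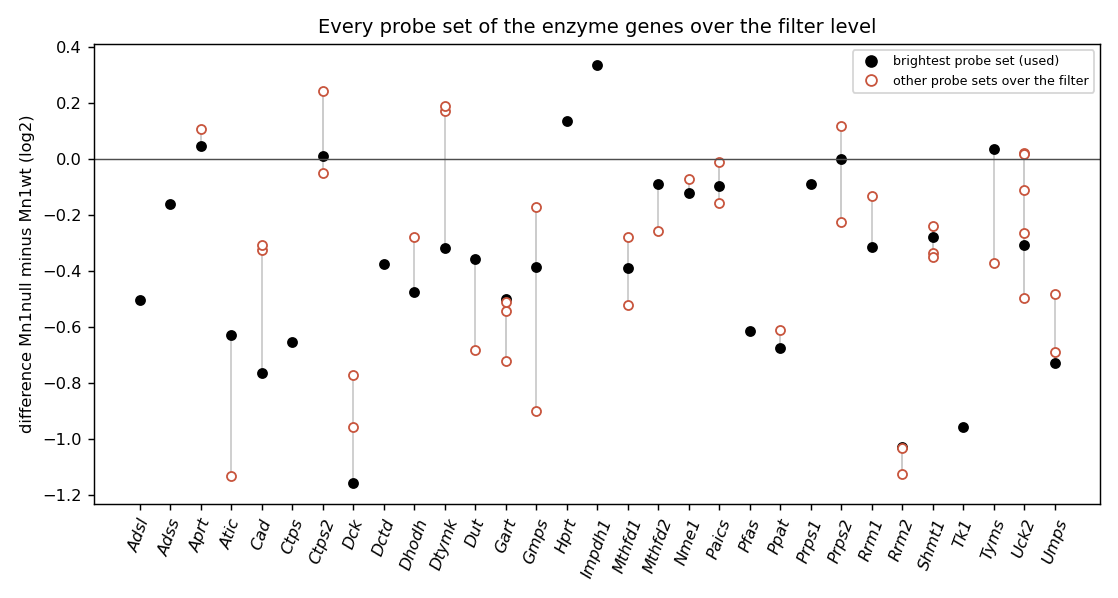
Difference Mn1null minus Mn1wt (log2) on all 71 probe sets of the enzyme genes over the filter level, by gene. Filled points are the brightest probe sets, used in the text, and open points are the 40 others, of which 33 have the same sign; probe sets of both signs are found for 5 genes.

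Of 40 further probe sets over the filter, 33 had the sign of the one used and 7 the opposite one, in 5 genes: Ctps2, Dtymk, Prps2, Tyms and Uck2. Another 5 probe sets lay under the filter level.

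Isozymes and related enzymes of the same reaction were compared within each array. Of 12 pairs listed, 11 could be compared, and the exact 2-sided permutation test over the 6 arrays cannot go below p = 0.10 in this design (adjusted 0.11 over the 11 pairs), so none can pass 0.05. In 10 pairs, those other than Mthfd2 and Mthfd2l (exact p = 0.20), the within-array difference of the 3 Mn1null arrays did not overlap that of the 3 Mn1wt arrays. The share over other gene pairs was not computed, so this count has no background, and 57.7% of single genes did not overlap. Some gaps were small: for Nme1 and Nme2 the highest Mn1wt value was -1.292 and the lowest Mn1null value -1.2914. The pairs lay furthest apart for kinases of deoxynucleosides. While Tk1 fell, the mitochondrial thymidine kinase gene Tk2 rose from 6.70, 6.81 and 7.005 to 7.69, 7.50 and 7.70, by 0.79 ± 0.092 (SE, limma adjusted p = 0.000375), so the pair differed by -1.75 (95% interval -2.04 to -1.45, exact p = 0.10). While Dck fell, the mitochondrial deoxyguanosine kinase gene Dguok rose from 8.65, 8.596 and 8.64 to 9.06, 9.08 and 9.09, by 0.45 ± 0.043 (adjusted p = 0.000148), a pair difference of -1.60 (95% interval -1.74 to -1.46, exact p = 0.10).

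Rrm2b, the small reductase subunit that p53 induces, read 7.90, 7.79 and 8.01 in Mn1wt and 8.01, 8.15 and 8.10 in Mn1null, a difference of 0.18 that did not pass (limma adjusted p = 0.0670), while its other probe set gave 0.69; against Rrm2 the pair difference was -1.21 (95% interval -1.45 to -0.97, exact p = 0.10). Ctps and Ctps2 differed by -0.66 (95% interval -0.80 to -0.53) and Uck2 and Uck1 by -0.40 (-0.68 to -0.12). Adss and its relative Adssl1 differed by 0.32 (95% interval 0.19 to 0.44), since Adssl1 fell more, by 0.47. For Prps1 and Prps2 (-0.22 to 0.040), Nme1 and Nme2 (-0.017 to 0.15), Shmt1 and Shmt2 (-0.0081 to 0.20) and Mthfd2 and Mthfd2l (-0.052 to 0.51) the 95% interval of the pair difference held 0. For Mthfd1 and the mitochondrial Mthfd1l it ran from -0.24 to -0.016.

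**Figure D4:**
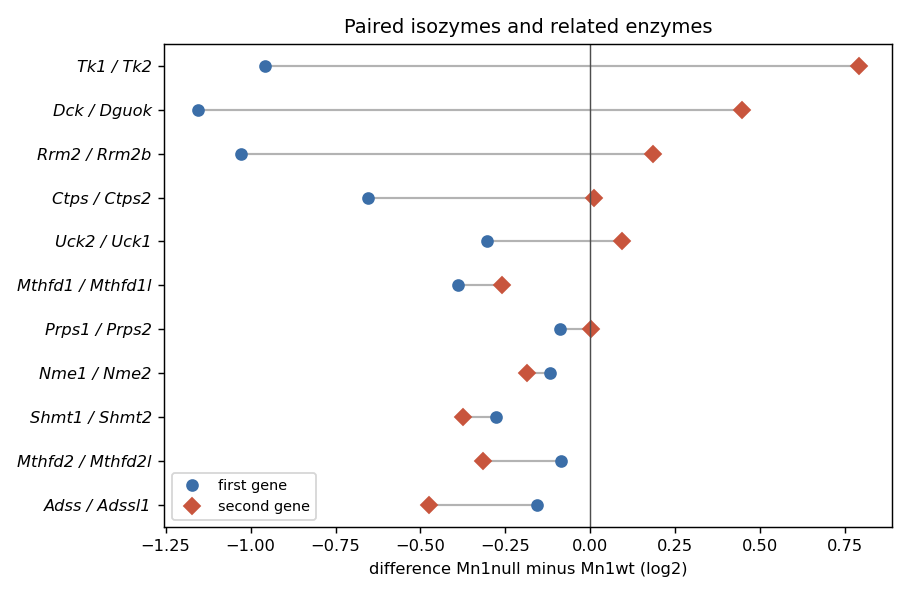
Difference Mn1null minus Mn1wt (log2) of the genes of 11 pairs of isozymes or related enzymes, the first-named gene as a circle and the second as a diamond. Tk1 and Tk2, Dck and Dguok, and Rrm2 and Rrm2b are the most widely spaced pairs, with differences between the members of -1.75, -1.60 and -1.21.

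Genes that surround these enzymes were counted in 9 further lists. Beside the count of each list stand the 23.2% of all genes that rose and the 25.6% that fell. Of 12 other purine genes tested, 4 rose and 6 fell (median -0.18). Among the adenylate kinases, which interconvert adenine nucleotides, Ak1 rose by 1.75 ± 0.082 (SE) and Ak4 by 1.07 ± 0.041, with 1 of its other probe sets at -0.059, while Ak3 fell by 1.58 ± 0.084. Ampd3, an AMP deaminase, rose by 1.97 ± 0.204, and Prpsap1, a partner protein of the PRPP synthetases, fell by 0.45 ± 0.050. Of 10 other pyrimidine genes, 4 rose and 4 fell (median 0.10). Upp1, the uridine phosphorylase, rose most there, from 5.51, 5.55 and 5.44 to 7.87, 7.59 and 7.80, by 2.25 ± 0.080. Cmpk2, a mitochondrial nucleotide kinase, rose by 1.11 ± 0.155 and Uckl1 by 0.25 ± 0.046, whereas Nme6 fell by 0.45 and Nme2 and Nme4 by 0.19 each, the last 2 calls being lost when any 1 of 2 arrays was left out. For the genes of the 9 lists that are named as risen or fallen, limma's adjusted p lay between 1.78e-06 (Upp1) and 0.0399 (E2f2). The counts also hold calls nearer the threshold, such as Entpd1 among the nucleotide breakdown genes (0.0499), lost on leaving out any 1 of 5 arrays.

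Of 9 other deoxynucleotide genes, 2 rose, namely Tk2 and Dguok, and 5 fell (median -0.22). Those that fell most clearly were the glutaredoxin gene Glrx (-0.58 ± 0.044) and thioredoxin gene Txn1 (-0.22 ± 0.043), whose products can pass electrons to ribonucleotide reductase, and Samhd1 (-0.30 ± 0.044), which degrades deoxynucleotides. Other probe sets gave -0.47 for Txn1 and -0.59 to -0.024 for Samhd1. Of 12 nucleotide breakdown genes, 5 rose and 4 fell (median 0.086). Xdh, which makes uric acid, rose by 1.98 ± 0.191 and the nucleotidase genes Nt5c3 and Nt5c2 by 1.21 ± 0.051 and 0.40 ± 0.052. Nt5e, which encodes the ectonucleotidase CD73, fell by 1.53 ± 0.089, with 0.056 on 1 dimmer probe set, guanine deaminase gene Gda fell by 0.54 ± 0.045, and adenosine deaminase gene Ada by 0.29 ± 0.066. Of 5 nucleoside transporter genes, 2 fell and 0 rose (0 also at an unadjusted p under 0.05; median -0.17): Slc29a1, which encodes the equilibrative transporter ENT1, from 8.78, 8.83 and 8.74 to 7.77, 7.68 and 7.77, by 1.04 ± 0.050, and Slc29a2 by 0.93 ± 0.062.

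In the folate pathway outside the 3 enzymes above, 9 of 19 genes fell and 2 rose (median -0.19). Slc19a1, the reduced folate carrier that also brings methotrexate into cells, read 10.32, 10.30 and 10.36 in Mn1wt and 9.29, 9.48 and 9.49 in Mn1null, a fall of 0.91 ± 0.065 (SE). The mitochondrial folate carrier gene Slc25a32 fell by 0.65 ± 0.049 and Shmt2, the mitochondrial serine hydroxymethyltransferase, by 0.38 ± 0.042. Ggh, which removes the glutamate tail that keeps folates in the cell, rose from 8.57, 8.47 and 8.65 to 9.75, 9.61 and 9.65, by 1.11 ± 0.063, and Folr1 rose by 0.62 ± 0.059 at low signals of 4.38 and 5.003. Of 7 genes that supply serine and methionine, 4 fell and 1 rose (median -0.23). Phgdh, the entry to serine synthesis, fell by 0.46 ± 0.047, Ahcy, which hydrolyses S-adenosylhomocysteine, by 0.36 ± 0.047 and Mtap, which salvages methylthioadenosine, by 0.26 ± 0.063. Sizes differed between probe sets for Slc19a1 (-0.85 to -0.33 on its others), Slc25a32 (-0.80 to -0.40), Shmt2 (-0.28 to -0.21) and Mtap (-0.57 to -0.27). The rise of Psat1 (0.14) was lost with median centring and on leaving out any 1 of 5 arrays, and its other probe set gave -0.019. The fall of Psph (-0.15), counted among the 4, was lost with quantile normalization, with median centring and on leaving out any 1 of 5 arrays.

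**Figure D5:**
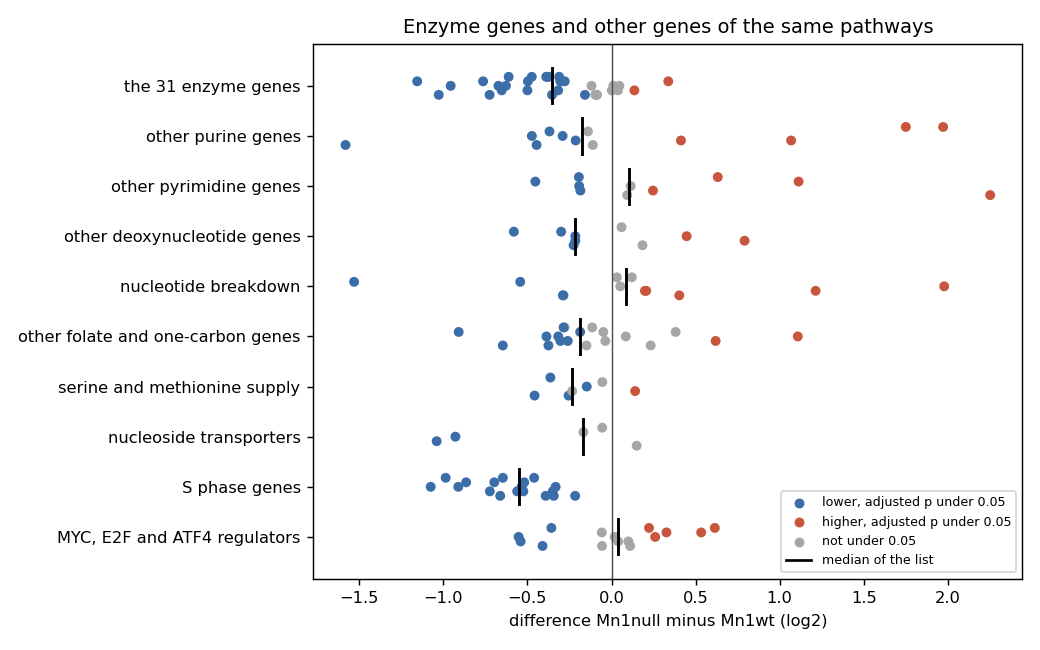
Difference Mn1null minus Mn1wt (log2) of the 31 enzyme genes and of the genes tested in 9 further lists, each point a gene, coloured by direction where limma's adjusted p was under 0.05. Black bars are the medians, which run from -0.55 for S phase genes to 0.10 for other pyrimidine genes and stand at -0.35 for the enzyme genes.

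Cell division genes and regulators were counted in the same fit. All 18 S phase genes tested fell, with a median of -0.55, among them Gins1 (-1.08 ± 0.049, SE), Ccne1 (-0.99 ± 0.044) and Cdc6 (-0.91 ± 0.047), and 25.6% of all genes fell. Among the enzyme genes the medians were -0.35 for the deoxynucleotide, -0.50 for the purine ring and -0.56 for the pyrimidine genes. The part of the S phase genes in these differences was not tested. Of 15 genes for regulators of the MYC, E2F and ATF4 families, 5 rose and 4 fell (median 0.040). These are 33.3% and 26.7% of the list, against 23.2% and 25.6% of all genes. Atf4 rose by 0.22, with -0.11 and -0.063 on its other probe sets. E2f2 rose by 0.33, a call lost with quantile normalization and on leaving out any 1 of 4 arrays. E2f1 fell by 0.55 ± 0.047 on its brightest probe set, with -0.18 and -0.17 on its others, E2f7 by 0.54 ± 0.054 and E2f3 by 0.36 ± 0.042, while E2f8 rose by 0.26 ± 0.043, Mxd1, an antagonist of MYC, by 0.61 ± 0.069 and Rb1 by 0.53 ± 0.063. Myc and Mycn, which drive many nucleotide synthesis genes in other cells, differed by 0.11 (limma adjusted p = 0.202) and 0.10 (0.0923) and did not pass. The other probe sets of Mycn gave differences of -1.07 and 0.090, so its direction depends on the probe set, and the one used read 14.50 to 14.65 on every array.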

How the data were processed

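Biotin-labelled RNA was read on 1 Affymetrix array per sample, and the 6 samples were grouped and numbered by their titles. The authors deposited 1 log2 value per probe set and array; the submitters' processing notes name RMA. RMA subtracts background and equalises the distributions of the arrays at the level of probes. Differences in total RNA amount are thus removed, and differences at low signal are compressed. The sources used here give no version.

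Of 45101 probe sets in the table, 64 controls were kept out of the tests. A probe set was named where the platform annotation gave 1 gene (34945), not where it gave several (932) or none (9160). Each gene was read by its brightest probe set over the 6 arrays, and 3513 of 18193 genes were left out because their mean lay below 4.07, the 30th percentile over the whole table. Differences are Mn1null minus Mn1wt from limma 3.58.1 (lmFit, eBayes; R 4.3.3), with 2-sided p-values adjusted by Benjamini-Hochberg over the 14680 genes tested. Other probe sets of a gene were fitted over the 31526 probe sets above the filter level. A fold is 2 to the power of the log2 difference. Steps were tested on simulated data. The number of arrays limits the precision.

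The enzyme genes, the further lists and the pairs were chosen with earlier results of these data known. All enzyme genes are named, and of each further list up to 3 genes per direction with the smallest p past the threshold. Entpd1, Psph, Atf4, E2f2, Myc and Mycn were named in addition, as were the genes of the pairs. Alternatives tried were other probe set rules, filters, normalizations, variance models, a replicate block, the omission of each array and a 0.01 threshold. Deviations of same-numbered arrays correlated at -0.0394, 0.109 and 0.0804, so the numbers were not taken as pairs.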

Additional observations from a re-analysis of the deposited data

How the results depend on the processing

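The count of lower enzyme genes stayed between 19 and 23 of those tested over all alternatives (21 as reported) and between 20 and 21 with each array left out. The count of higher ones was 2, and it became 1, without Hprt, when there was no filter, with median centring, with array weights, with the replicate block, at a threshold of 0.01 and when any 1 array was left out (lowest 1, highest 1). The replicate block gave 20 lower and 1 higher, losing Adss (adjusted p = 0.0603) and Hprt (0.0705), and 6943 calls over all genes against 7170; 2 of 6 arrays correlated best with their own number. The median difference of -0.35 became -0.32 with probe sets designed for 1 transcript only, which leave 27 genes, and -0.31 with quantile normalization. Directions turned for Dtymk with the mean of its probe sets (0.016) and with 1-transcript probe sets (0.19), for Tyms with the mean (-0.16), for Prps2 with the mean (-0.034) and median centring (-0.0091), and, with single arrays left out, for Prps2 (-0.027 to 0.026) and Ctps2 (-0.039 to 0.048); beyond the probe sets themselves the cause was not tested. For single genes, 461 values under an alternative kept direction and side of the threshold, 18 lost the call, 4 gained it and 9 turned. Signals near the filter level, as for Tyms, limit what can be read.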
